A study of Mus musculus with 8 samples.

Results

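The genes described here encode the subunits of the oxidative phosphorylation system. They were taken by name from a table of gene counts in regulatory T (Treg) cells. A row was taken if its symbol begins with Nduf, Uqcr, Cox4, Cox5, Cox6, Cox7, Cox8 or Atp5, or is Sdha, Sdhb, Sdhc or Sdhd. This gave 89 of the 19191 rows, spread over 19 chromosomes. Of these, 36 encode complex I, 4 complex II, 8 complex III, 17 complex IV and 15 complex V. The other 9 rows are not subunits, namely the complex I assembly factors Ndufaf1 to Ndufaf4, the supercomplex factor Cox7a2l, Atp5s, Atp5sl, the pseudogene Atp5l-ps1, and Cox4nb, a subunit of an endoplasmic reticulum complex.

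The cells were Treg cells sorted by flow cytometry from large intestinal lamina propria (C57BL/6 mice). Total RNA of 4 samples was sequenced. WT (2 libraries) carried the genotype Ahrf/+ Foxp3Yfp-Cre and KO (2 libraries) carried Ahrf/- Foxp3Yfp-Cre. Both groups therefore share a floxed allele of Ahr, the aryl hydrocarbon receptor, and a Cre recombinase made where Foxp3 is made. As the genotypes are written, the other Ahr allele is wild type in WT and null in KO. A WT Treg cell thus keeps a wild-type copy, and in KO mice the cells without Cre also carry a null copy. The age and number of the mice are not stated in the sources used here. No label says that the replicates come from separate mice, so a p-value here reflects the spread between samples and that spread may be technical.

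Oxidative phosphorylation takes place in the inner mitochondrial membrane. Complex I and complex II feed electrons from NADH and succinate to ubiquinone, complex III passes them to cytochrome c, and complex IV passes them to oxygen. Complexes I, III and IV pump protons as they do so, and complex V, the ATP synthase, uses the returning protons to make ATP. A few catalytic subunits are encoded in mitochondrial DNA, and none of the symbols searched for those was in the table, so every gene described here is nuclear. Treg cells are known to rely more on oxidative metabolism than conventional effector T cells do.

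The total gene count per library lay between 26862922 and 62402450, and replicate 2 was the deeper library in both genotypes. Levels are given in CPM, counts per 1000000 after scaling of the library. CPM is not corrected for transcript length, so levels are compared here between libraries and not between genes. The deleted gene was still counted in every library, with Ahr at 581 and 539 CPM in WT against 536 and 518 CPM in KO, and counts over a whole gene do not show a deleted exon. Ahrr, a feedback target of the receptor, was at 7.30 and 6.55 CPM in WT against 0.391 and 0.265 CPM in KO (log2 fold change -4.42 ± 0.31, standard error, edgeR adjusted p = 0.218, DESeq2 adjusted p = 3.11e-18). Over the alternatives run, its adjusted p lay between 3.11e-18 and 1.00. The 8 Treg markers summed to 6773 and 6457 CPM in WT against 7619.8 and 7077 CPM in KO, so both KO sums lay above both WT sums. Of the 8 markers, 5 had a higher and 3 a lower fitted level in KO (median log2 fold change 0.06), with 0 called. The 12 marker lists of other cell types, with 56 genes found, summed to between 0.227 and 349.5 CPM per list and library, and no marker was at 0 in all 4 libraries.

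Promoters were read for the motifs of NRF-1, YY1 and the ETS factor GABPA, which are known activators of nuclear genes for mitochondrial proteins, and for the response element of Ahr. RefSeq promoter sequences (GRCm38.p6, 250 bases before to 50 after the start) were matched to 73 of the 89 genes, 3 of them by a synonym. Both strands were searched. The NRF-1 motif, a palindrome, was in 6 of the 73 (8.22%), against 2.17% of the tested genes with a promoter and 1.07% of all genes with one. The YY1 motif was in 5 (6.85%, against 1.65% and 0.755%). The ETS motif CCGGAAG, bound by GABPA among others, was in 17 (23.3%, against 18.8% and 9.93%). The Ahr response element TNGCGTG was in 8 (10.96%, against 9.05% and 5.84%), and TATAAA was in 6 (8.22%, against 9.39% and 15.7%). None of these motifs contains another, and matches of different motifs may share end bases. A match is a description of the letters only.

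Promoters of 4 genes are shown because they carry these motifs at genes described further on. Motif matches are in capitals, which also spell the NRF-1 and YY1 motifs searched, each sequence runs 5′ to 3′ on the strand of its gene, and positions count from 1 at the transcription start. Uqcrc1 (chr9:108936398-108936697, plus strand) carries the NRF-1 motif from position 31. Ndufs7 (chr10:80249199-80249498, plus strand) carries the YY1 motif from position 25 and TATAAA from position -99. Sdhb (chr4:140961021-140961320, plus strand) carries the ETS motif from position 7 and the Ahr element from position -123. Sdha (chr13:74350191-74350490, minus strand) carries the Ahr element from position -79.
Uqcrc1: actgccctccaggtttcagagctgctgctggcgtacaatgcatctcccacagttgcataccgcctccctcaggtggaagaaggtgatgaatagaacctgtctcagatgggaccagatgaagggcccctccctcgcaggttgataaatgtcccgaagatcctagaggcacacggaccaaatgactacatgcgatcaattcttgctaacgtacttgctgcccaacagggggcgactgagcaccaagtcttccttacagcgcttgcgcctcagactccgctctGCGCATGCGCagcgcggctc
Ndufs7: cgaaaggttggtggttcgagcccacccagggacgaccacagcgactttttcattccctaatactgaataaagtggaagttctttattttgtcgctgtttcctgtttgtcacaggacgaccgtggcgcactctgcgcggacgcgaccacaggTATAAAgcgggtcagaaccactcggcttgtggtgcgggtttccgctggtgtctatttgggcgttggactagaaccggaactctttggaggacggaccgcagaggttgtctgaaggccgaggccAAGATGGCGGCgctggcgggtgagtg
Sdhb: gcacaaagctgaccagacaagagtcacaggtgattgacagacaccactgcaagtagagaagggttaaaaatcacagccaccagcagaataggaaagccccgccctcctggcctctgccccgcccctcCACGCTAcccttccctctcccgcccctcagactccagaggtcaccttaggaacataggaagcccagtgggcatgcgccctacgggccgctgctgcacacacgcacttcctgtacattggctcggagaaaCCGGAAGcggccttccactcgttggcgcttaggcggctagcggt
Sdha: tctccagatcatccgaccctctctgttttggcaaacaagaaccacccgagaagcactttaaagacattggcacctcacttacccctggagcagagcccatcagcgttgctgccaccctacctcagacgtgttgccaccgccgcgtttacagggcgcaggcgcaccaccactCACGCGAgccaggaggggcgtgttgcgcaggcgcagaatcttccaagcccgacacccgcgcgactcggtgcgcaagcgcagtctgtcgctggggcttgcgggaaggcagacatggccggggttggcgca

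The 8 genes with the Ahr element were Ndufa3, Ndufa4, Ndufa7, Ndufaf2, Ndufc2, Ndufv1, Sdha and Sdhb. Their log2 fold changes of KO over WT ran from -0.10 to 0.19 with a median of 0.04. The 64 tested genes with a promoter but without the element had a median of 0.07. The 6 genes with the NRF-1 motif ran from -0.12 to 0.22 with a median of -0.02, and the 5 with the YY1 motif from -0.06 to 0.14 with a median of 0.11.

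No oxidative phosphorylation gene passed the test between KO and WT. Of the 89 genes, 86 passed the filter on low counts, and edgeR's quasi-likelihood test called 0 of the 86 higher and 0 lower (Benjamini-Hochberg adjusted p under 0.05), where 0% of all 14274 tested genes were called in either direction. The adjusted p was 1.00 for each of the 86. At an unadjusted p under 0.05 the count was also 0 of 86 in both directions, beside 1.64% of all tested genes higher and 1.21% lower. DESeq2 called 0 of the 89 (0.167% of its genes were called higher and 0.1% lower), limma-voom called 0 of 86 (0% in both directions), and both gave 0 members at an unadjusted p under 0.05. The authors' deposited table gave an adjusted p of 0.889 for each of the 89 rows and held 66 rows under 0.05 (0.344%). In bulk samples such as these, a change in the share of cells and a change in RNA per cell cannot be told apart.

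The intervals, taken per gene and not adjusted over genes, describe the precision of each fold change given the spread between these samples. They are not a measure of what the adjusted test could detect. The 95% interval of the fold change lay inside 2-fold in either direction for 82 of the 86 genes (95.3%, beside 74.5% of all tested genes). It lay inside 1.5-fold for 69 (80.2%, beside 57.1%) and within 0.32 of 0 on the log2 scale for 23 (26.7%, beside 16.9%). The 4 genes whose interval reached past 2-fold were Cox4i2, Cox6b2 and Cox7a1, each under 1 CPM in all libraries, and Uqcrq. Among the 82 genes with a mean of at least 2 CPM, the log2 fold change ran from -0.14 in Ndufab1 to 0.28 in Ndufc1.

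The fitted level was higher in KO for 64 of the 86 genes (74.4%) and lower for 22, beside 52% higher among all tested genes. The median log2 fold change of the 86 was 0.07, with quartiles of 0.00 and 0.12, and that of all tested genes was 0.01. Both KO libraries lay above both WT libraries in 22 genes (25.6%, beside 13.5% of all tested genes) and below them in 7 (8.14%, beside 13.4%), and in the other 57 the groups overlapped. Within both replicate numbers the KO library was the higher one in 48 genes (55.8%, beside 29.6%) and the lower one in 13 (15.1%, beside 27.1%). The summed level of all 89 genes was 5118 and 5265 CPM in WT against 5385 and 5444 CPM in KO, so both KO libraries stood above both WT libraries. The sum differed by 1.05-fold within replicate 1 and by 1.03-fold within replicate 2. Summed over all rows of the table, CPM differed by 1.01-fold and 1.03-fold within these replicates, KO over WT. As a share of all counts the 89 genes held 0.512% and 0.537% in WT against 0.533% and 0.539% in KO, with overlapping groups. The sums by complex given below carry the same scaling. The median log2 ratio of the 86 genes was 0.08 within replicate 1 and 0.05 within replicate 2. Without KO replicate 1 the fitted median was 0.02 and 48 of 87 genes were higher, so the size of this shift depends in part on that library. The summed Treg markers were also higher in KO, by 1.125-fold within replicate 1 and 1.096-fold within replicate 2, with 3 of the 8 on the lower side. Of 8 tested epithelial markers, 6 had a higher fitted level in KO (median log2 fold change 1.19), with 0 called by edgeR, 3 at an unadjusted p under 0.05 and 1 called by DESeq2. The authors' deposited table held 3 of the 9 epithelial markers found at an adjusted p under 0.05, beside 0.344% of all its rows. The sum of the 9 was 19.5 and 19.6 CPM in WT against 19.4 and 30.4 CPM in KO. The part of these markers in the shift was not tested.

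**Figure D1:**
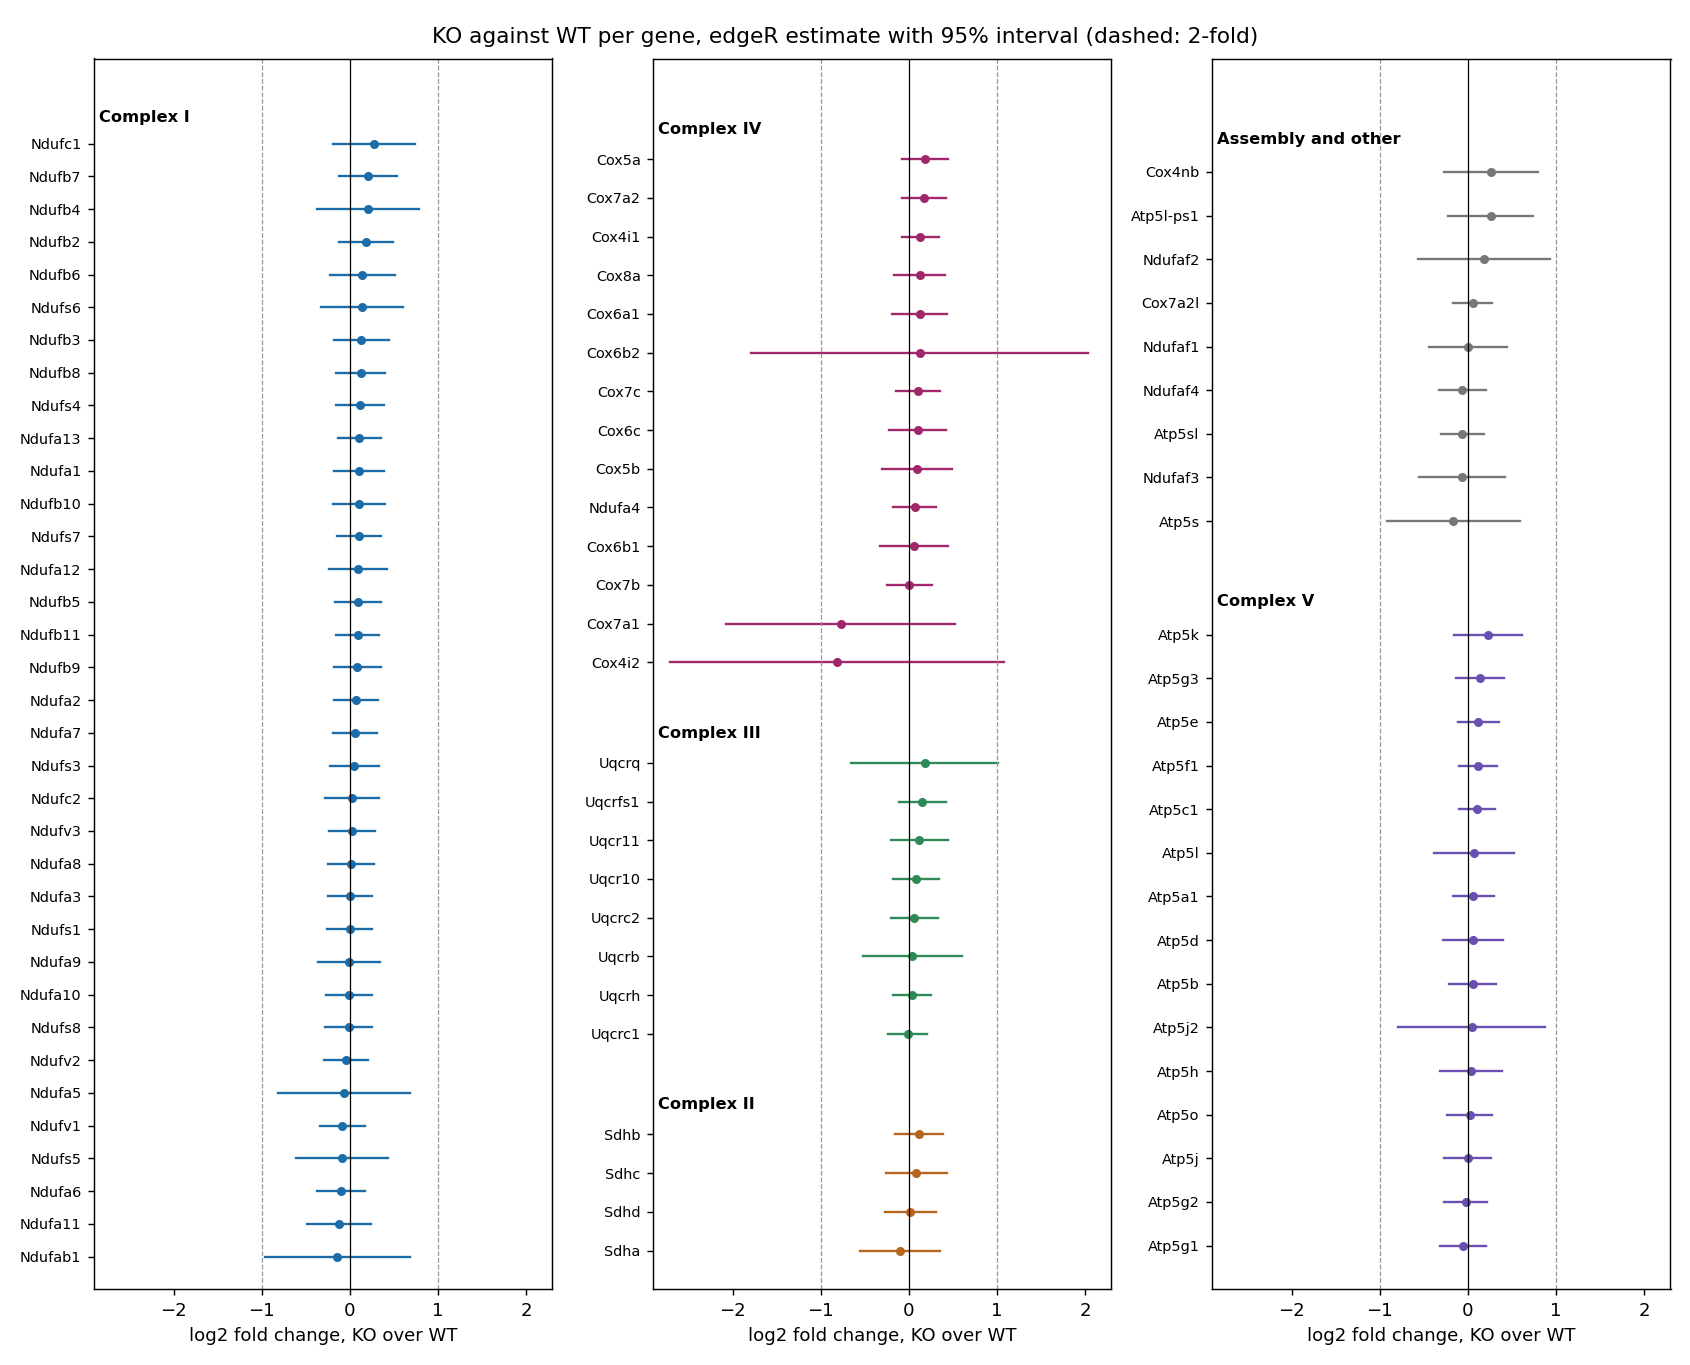
The log2 fold change of KO over WT (horizontal axis) is drawn for 85 of the 86 tested genes, grouped by complex, as a dot with its 95% interval from edgeR, and dashed lines mark 2-fold. Every interval spans 0, and the 4 that cross a dashed line belong to Cox4i2, Cox7a1, Cox6b2 and Uqcrq.

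Complex I, the NADH dehydrogenase, was represented by 36 genes. Of these 25 had a higher and 11 a lower fitted level in KO, 0 were called, and the median log2 fold change was 0.06 (0.07 within replicate 1 and 0.04 within replicate 2). Both KO libraries lay above both WT libraries in 12 of the 36 (13.5% of all tested genes) and below in 2 (13.4%). The summed level was 1191 and 1240.2 CPM in WT against 1245 and 1259 CPM in KO. As a share of all counts it was 0.119% and 0.127% in WT against 0.123% and 0.124% in KO, with WT replicate 2 the highest. The median of complex I was 0.02 without KO replicate 1, and 0.04 without either WT replicate 1 or KO replicate 2.

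The 7 nuclear core subunits, which carry the flavin, the iron-sulfur clusters and the quinone site, had a median of -0.00, with 3 genes higher and 4 lower. Ndufv1, the subunit that binds NADH, stood at 63.7 and 69.0 CPM in WT against 61.1 and 64.1 CPM in KO (log2 fold change -0.08, 95% interval -0.34 to 0.17). The values of the genotypes overlapped. Ndufs7, a core iron-sulfur subunit whose promoter is shown above, stood at 20.4 and 20.2 CPM in WT against 21.7 and 22.003 CPM in KO. Here the groups did not overlap, with a fold change of 0.11 on the log2 scale and an interval from -0.15 to 0.36. Ndufv2, another core subunit, was the reverse case, with 52.6 and 52.3 CPM in WT against 52.2 and 49.6 CPM in KO (-0.04, interval -0.29 to 0.21).

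The 29 accessory subunits surround the core and stabilise it. Their median log2 fold change was 0.09, with 22 higher and 7 lower. Ndufb7, an accessory subunit of the membrane arm, stood at 27.5 and 29.8 CPM in WT against 30.0 and 36.1 CPM in KO (log2 fold change 0.21 ± 0.13, interval -0.12 to 0.53). KO replicate 2 was the highest of the 4 libraries and KO replicate 1 was close to WT replicate 2. Ndufb2, also of the membrane arm, stood at 14.6 and 16.1 CPM in WT against 16.5 and 18.4 CPM in KO (0.19, interval -0.12 to 0.49), and again the groups were next to each other without overlap. Ndufc1 had the largest difference of the complex, with 6.55 and 5.64 CPM in WT against 8.02 and 6.74 CPM in KO (0.28, interval -0.19 to 0.74).

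On the lower side, Ndufa6 and Ndufa11 had the lowest p of the complex. Ndufa6 stood at 61.3 and 60.9 CPM in WT against 60.7 and 53.7 CPM in KO (log2 fold change -0.09, interval -0.37 to 0.18), a difference carried by KO replicate 2. Ndufa11 stood at 17.3 and 15.2 CPM in WT against 16.3 and 13.6 CPM in KO (-0.12, interval -0.48 to 0.24), with overlapping groups. The X-linked subunits Ndufa1 and Ndufb11 had log2 fold changes of 0.11 and 0.09. Ndufab1 is the mitochondrial acyl carrier protein and also a subunit of complex I. It differed more between replicates (-0.70 in WT and -0.59 in KO, replicate 2 over replicate 1, log2) than between genotypes (-0.14).

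Complex II, succinate dehydrogenase, links the chain to the tricarboxylic acid cycle and is encoded wholly in the nucleus. Its summed level was 276.1 and 327.8 CPM in WT against 275.9 and 328.3 CPM in KO, ratios of 0.999 and 1.00 within replicates 1 and 2. Sdha, the flavoprotein that oxidises succinate, stood at 112 and 140.5 CPM in WT against 100.4 and 135 CPM in KO (log2 fold change -0.10 ± 0.18, interval -0.56 to 0.35). Both replicate 2 libraries lay above both replicate 1 libraries, in the same order for each genotype. Sdhb, the iron-sulfur subunit, stood at 56.2 and 63.6 CPM in WT against 63.3 and 66.6 CPM in KO (0.12, interval -0.16 to 0.39).

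Sdhc and Sdhd encode the membrane anchors that hold the quinone site. Sdhc stood at 40.6 and 47.4 CPM in WT against 43.0 and 50.4 CPM in KO (log2 fold change 0.09, interval -0.26 to 0.43). Sdhd stood at 67.1 and 76.3 CPM in WT against 69.1 and 76.0 CPM in KO (0.02, interval -0.27 to 0.31). In all 4 genes the groups overlapped. The median of the 4, 0.05, was -0.05 without WT replicate 1, -0.04 without KO replicate 2, 0.16 without WT replicate 2 and 0.11 without KO replicate 1, so its sign depends on single libraries.

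Complex III, the cytochrome bc1 complex, had 7 of 8 genes with a higher fitted level in KO, a median log2 fold change of 0.07 and 0 called. Without KO replicate 1 the median was 0.04. Its summed level was 568 and 572 CPM in WT against 589 and 602 CPM in KO. Uqcrfs1, the Rieske iron-sulfur protein that hands electrons to cytochrome c1, stood at 90.04 and 89.2 CPM in WT against 92.9 and 107 CPM in KO (0.16 ± 0.11, interval -0.11 to 0.42). It was the one gene of the 8 whose groups did not overlap, and KO replicate 2 carried most of the difference. Among all tested genes, 13.5% had both KO libraries above both WT libraries and 13.4% had both below.

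The core proteins of complex III, Uqcrc1 and Uqcrc2, differed less. Uqcrc1 stood at 104 and 110.3 CPM in WT against 108 and 105 CPM in KO (log2 fold change -0.01, interval -0.24 to 0.21). Uqcrc2 stood at 131 and 143 CPM in WT against 133 and 152 CPM in KO (0.06, interval -0.20 to 0.33). Uqcr11, a small subunit, had 0.12 (interval -0.20 to 0.45), which was 0.0093 without WT replicate 1. Uqcrq, which helps to bind ubiquinone, stood at 26.5 and 15.1 CPM in WT against 28.9 and 18.1 CPM in KO, so the interval of its fold change was wide (0.18, interval -0.66 to 1.016).

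Complex IV, cytochrome c oxidase, reduces oxygen to water, and its nuclear subunits include pairs of ubiquitous and tissue-restricted isoforms. Of its 17 rows 14 were tested, and 12 had a higher and 2 a lower fitted level in KO, with 0 called. Among all tested genes 52% were higher. Cox4i2 and Cox7a1 on the lower side and Cox6b2 on the higher side were each under 1 CPM in all libraries. The median log2 fold change of the 14 was 0.10, with 0.09 within replicate 1 and 0.08 within replicate 2. The summed level was 749.6 and 714 CPM in WT against 822 and 754 CPM in KO. WT replicate 1 and KO replicate 2 were thus close, and the median was -0.00 without KO replicate 1, 0.05 without WT replicate 2, 0.17 without WT replicate 1 and 0.14 without KO replicate 2.

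Cox4i1, the ubiquitous form of subunit 4 that adjusts the enzyme to the ATP supply (chromosome 8, 123192190 to 123198109, mm9), stood at 173 and 182 CPM in WT against 194 and 195 CPM in KO. The groups did not overlap, and the fold change was 0.13 ± 0.08 on the log2 scale (interval -0.08 to 0.34). Cox5a, a subunit on the matrix side, stood at 31.6 and 28.9 CPM in WT against 33.7 and 34.9 CPM in KO (0.18 ± 0.11, interval -0.08 to 0.45). Cox7a2, the ubiquitous form of subunit 7a, stood at 54.7 and 55.0 CPM in WT against 64.2 and 59.7 CPM in KO (0.17 ± 0.10, interval -0.08 to 0.43). In these 3 genes and in Cox7c and Ndufa4 both KO libraries lay above both WT libraries (13.5% of all tested genes). The interval of each of the 5 spans 0.

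The forms of complex IV subunits known from heart, skeletal muscle, testis or hypoxic tissue were near the limit of detection, where 3 counts correspond to between 0.0471 and 0.112 CPM per library. Cox4i2, the form induced at low oxygen, held 7 and 21 counts in WT and 8 and 5 in KO. Cox7a1, a heart and muscle form, held 17 and 35 counts in WT and 12 and 16 in KO. Cox6b2, a testis form, held 12 and 16 in WT and 5 and 29 in KO. In Cox7a1 both KO libraries were below both WT libraries after scaling, at 0.633 and 0.550 CPM in WT against 0.391 and 0.303 CPM in KO (log2 fold change -0.77 ± 0.52, interval -2.07 to 0.53). In Cox6b2 the direction differed between the replicates.

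The other 3 rows of complex IV did not pass the filter, and for these the ratio of summed counts is given with an exact 95% interval that covers counting error only. Cox8b, a heart and muscle form, held 6 and 7 counts in WT and 2 and 0 in KO, a ratio of KO over WT of 0.163 (interval 0.0178 to 0.718). Cox6a2, the heart and muscle form of subunit 6a, held 4 and 2 counts in WT and 0 and 0 in KO, a ratio of 0 (interval 0 to 0.898). With KO set to 3 counts over the group, its level would be 1.89-fold lower, which is not a bound. Ndufa4l2, a paralog of Ndufa4 induced at low oxygen, held 1 and 10 counts in WT and 5 and 19 in KO, a ratio of 2.31 (interval 1.09 to 5.22). None of the 3 ratios is a test of the genotype. The 5 striated muscle markers summed to 21.1 and 23.4 CPM in WT against 21.999 and 23.5 CPM in KO, and the 7 smooth muscle and stromal markers to 21.4 and 69.4 CPM in WT against 14.54 and 82.9 CPM in KO. Their part in these counts was not tested.

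**Figure D2:**
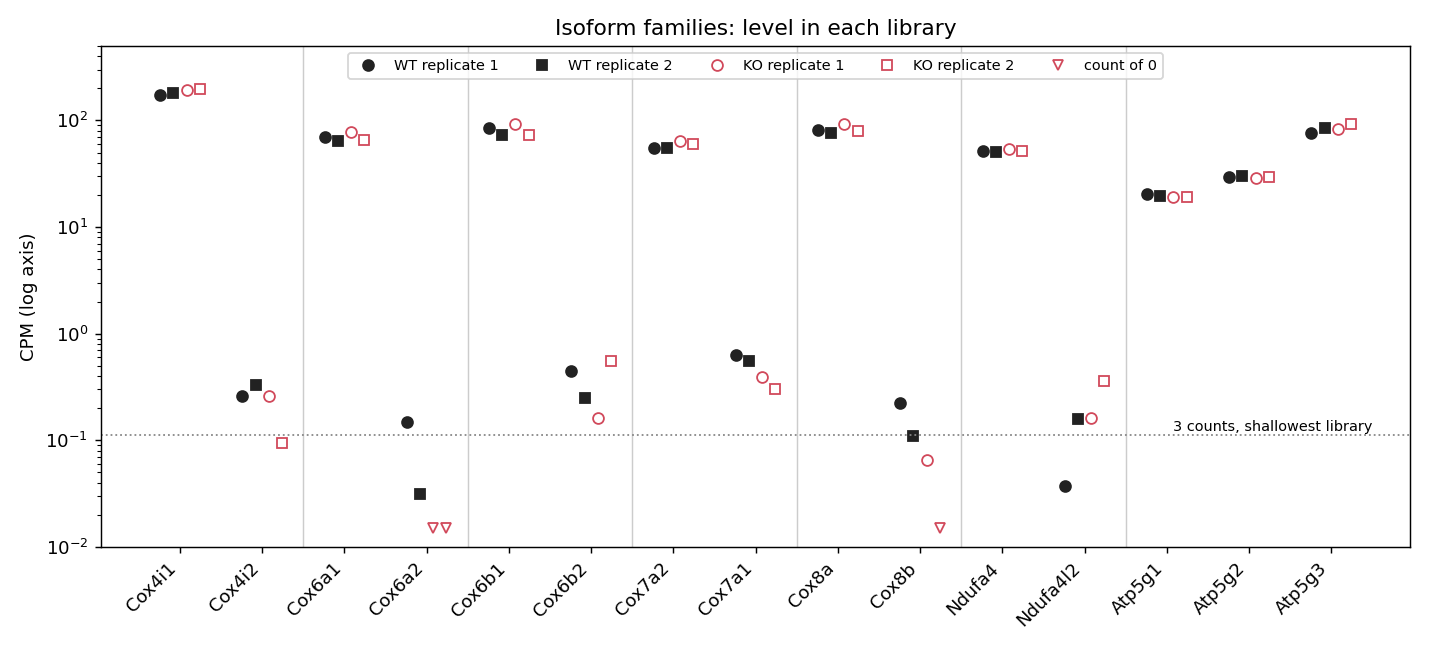
Levels of the isoform families of complexes IV and V in each of the 4 libraries (vertical axis, CPM on a log axis, comparable within a gene), with triangles for a count of 0 and a dotted line at 3 counts in the shallowest library. The second gene of each complex IV pair stayed under 1 CPM in all libraries, and the 4 points of each ubiquitous gene lay close together.

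Complex V, the ATP synthase, had 12 genes with a higher and 3 with a lower fitted level in KO, a median log2 fold change of 0.05 and 0 called. Its summed level was 2059.75 and 2135 CPM in WT against 2161 and 2228 CPM in KO. Both KO libraries lay above both WT libraries in 3 of the 15 genes (13.5% of all tested genes) and below in 2 (13.4%). All 6 genes counted with the F1 head, which makes ATP, were on the higher side, with a median of 0.06 and a range from 0.02 to 0.12. Among the 6 is Atp5o, a subunit of the stalk that was counted here with F1, and it had the lowest value (0.02). The median of complex V was -0.03 without KO replicate 1, 0.02 without WT replicate 2 and 0.10 without KO replicate 2.

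Atp5a1 and Atp5b encode the alpha and beta subunits that form the catalytic ring. Atp5a1 stood at 641 and 680.1 CPM in WT against 661 and 717 CPM in KO (log2 fold change 0.06, interval -0.17 to 0.30). Atp5b stood at 625 and 693 CPM in WT against 646 and 721 CPM in KO (0.05, interval -0.21 to 0.32). In both genes the replicate 2 libraries were the higher ones in each genotype, and the groups overlapped. Atp5c1, the gamma shaft that turns inside the ring, stood at 129 and 132 CPM in WT against 142 and 139 CPM in KO (0.10 ± 0.08, interval -0.10 to 0.31), without overlap.

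The 9 genes of the Fo part, which holds the proton channel and here the rest of the stalk, had a median of 0.04, with 6 higher and 3 lower. Atp5f1, the stalk subunit b, stood at 92.3 and 92.6 CPM in WT against 99.3 and 101 CPM in KO (log2 fold change 0.12 ± 0.09, interval -0.10 to 0.33). The replicates of each genotype lay close together and the groups did not overlap. Atp5k, the small subunit e that helps the enzyme to form dimers, stood at 18.5 and 15.6 CPM in WT against 21.9 and 17.95 CPM in KO (0.22 ± 0.15, interval -0.16 to 0.61). Without 1 library its fold change lay between 0.0655 (without KO replicate 1) and 0.36 (without KO replicate 2), while that of Atp5f1 lay between 0.10 and 0.12.

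Atp5g1, Atp5g2 and Atp5g3 encode the same mature subunit c of the rotor ring behind different import sequences. Atp5g1 stood at 20.6 and 19.4 CPM in WT against 19.1 and 19.3 CPM in KO (log2 fold change -0.06, interval -0.32 to 0.20). Atp5g2 stood at 29.3 and 29.9 CPM in WT against 28.9 and 29.3 CPM in KO (-0.03, interval -0.27 to 0.22). Atp5g3 stood at 76.0 and 84.1 CPM in WT against 83.9 and 92.3 CPM in KO (0.14, interval -0.13 to 0.41). The intervals of the 3 copies overlap, and reads of their shared part cannot be assigned to a copy with certainty. The same holds for Atp5l and the pseudogene Atp5l-ps1, which had log2 fold changes of 0.07 and 0.26.

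Among the 9 rows that are not subunits, 5 were higher and 4 lower, with a median of 0.00 and 0 called. Cox7a2l, the supercomplex factor, stood at 180.2 and 181 CPM in WT against 196 and 179 CPM in KO (log2 fold change 0.05, interval -0.17 to 0.28). The assembly factor Ndufaf4 stood at 16.4 and 16.5 CPM in WT against 15.9 and 15.7 CPM in KO (-0.06, interval -0.33 to 0.20). Atp5sl, which takes part in complex I assembly despite its name, stood at 40.5 and 39.4 CPM in WT against 38.7 and 37.7 CPM in KO (-0.06, interval -0.31 to 0.18). In both genes the KO libraries lay just under the WT libraries (2 of the 9 rows, beside 13.4% of all tested genes). Cox4nb lies 177 bp from the start of Cox4i1 on the other strand, and it stood at 8.12 and 10.0 CPM in WT against 9.06 and 12.7 CPM in KO (0.27, interval -0.27 to 0.80).

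**Figure D3:**
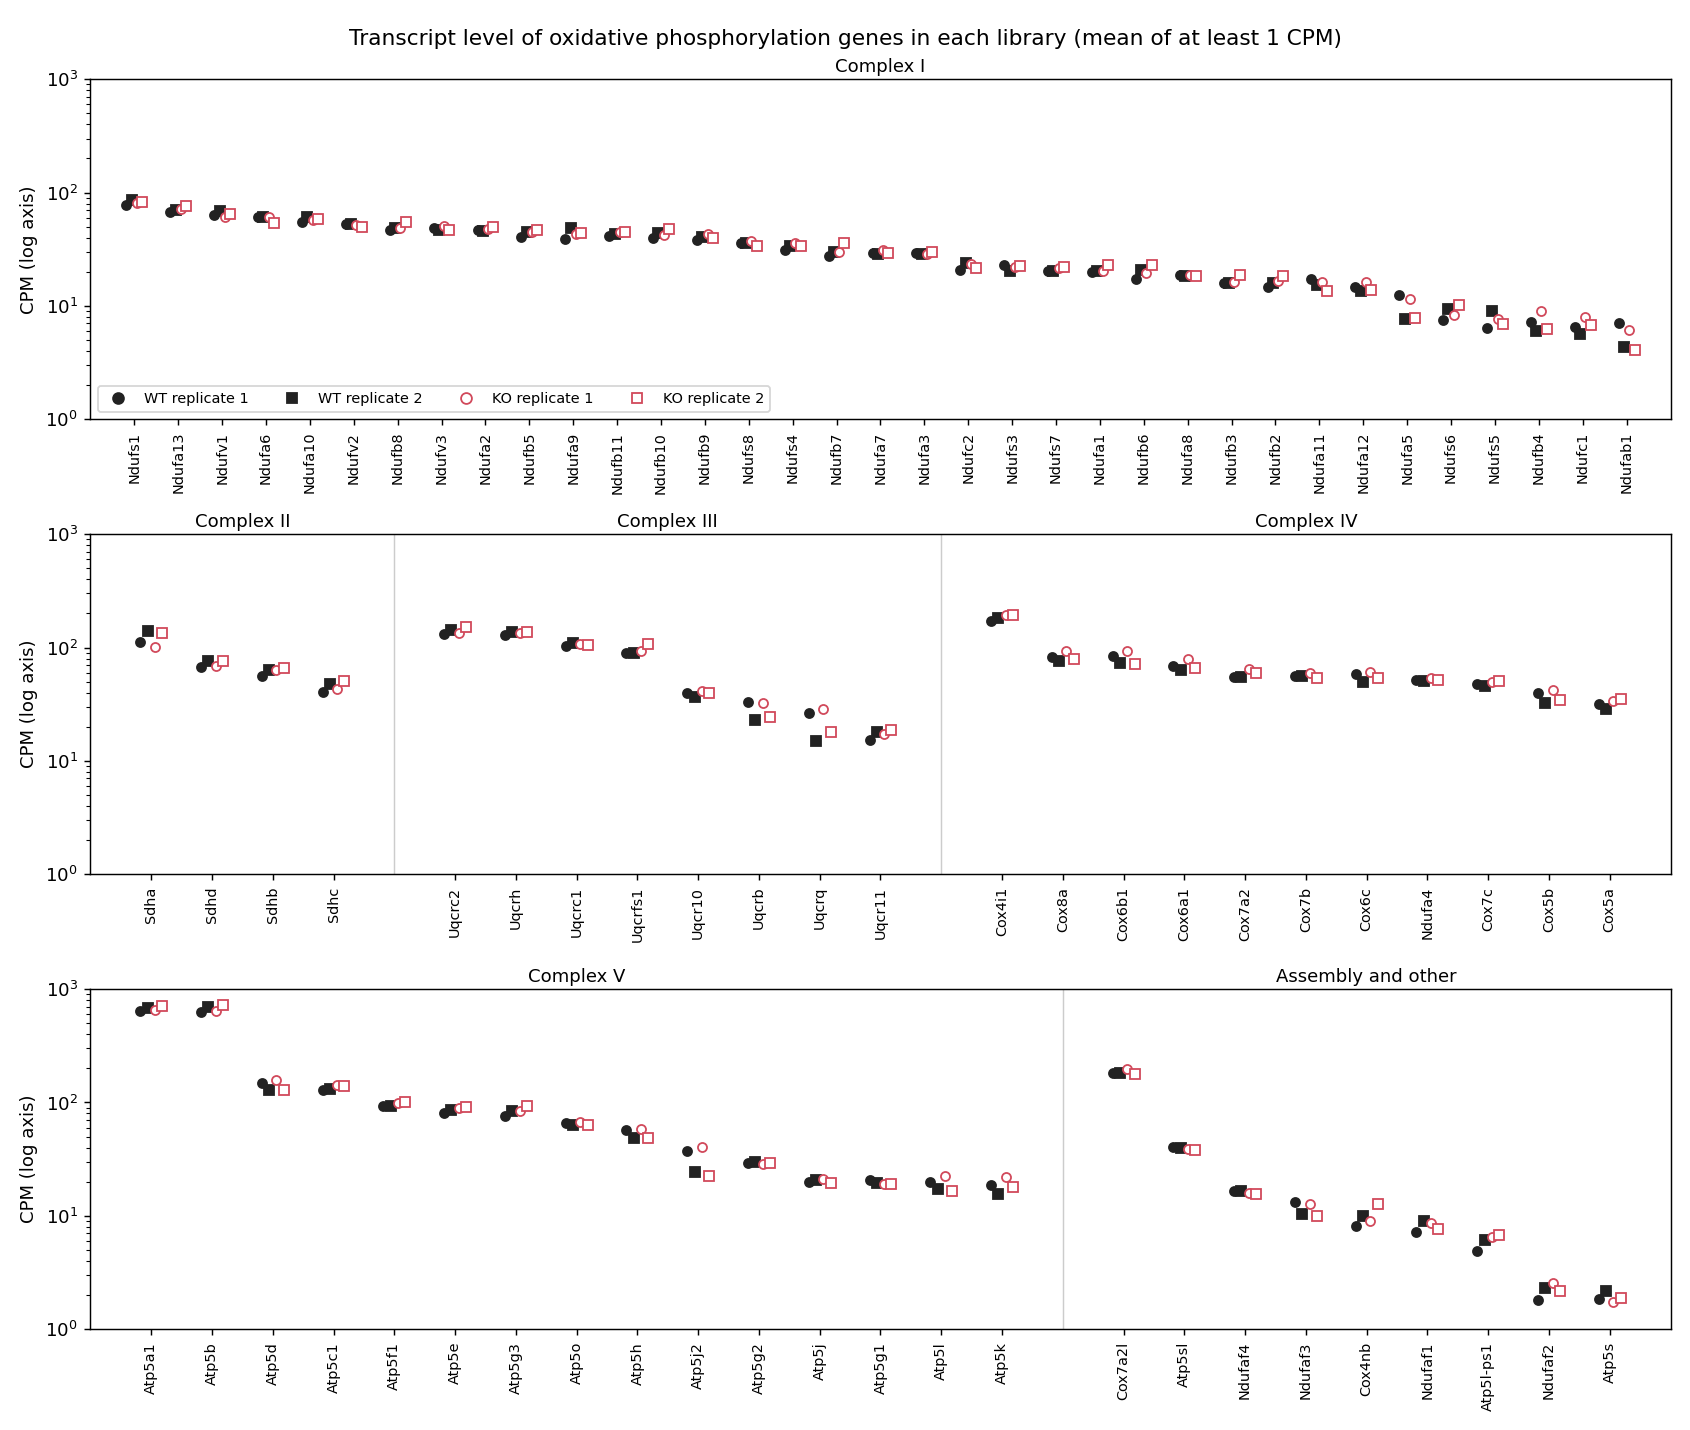
CPM (log axis, comparable within a gene) of the genes shown, with a mean of at least 1 CPM, is drawn for the 4 libraries, with filled symbols for WT, open symbols for KO, circles for replicate 1 and squares for replicate 2. In most genes the 4 symbols nearly coincide, and in Atp5j2, Uqcrq, Ndufa5 and Ndufab1 the squares lie under the circles in both genotypes.

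Like tested genes in general, many of these genes differed between the libraries of a genotype. The difference between replicate 2 and replicate 1 was larger in size than that between genotypes in 53 of the 86 genes (61.6%), beside 64.0% of all tested genes. In 6 genes replicate 2 lay under replicate 1 by over 0.32 on the log2 scale in both WT and KO (6.98%, beside 6.44% of all tested genes), and in 1 gene, Sdha, it lay above by that much in both (1.16%, beside 9.31%). The 6 were Atp5j2, Uqcrq, Ndufab1, Ndufa5, Uqcrb and Ndufaf3.

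Atp5j2, the Fo subunit f, stood at 37.2 CPM in WT replicate 1 and 24.2 in WT replicate 2, and at 40.6 and 22.5 CPM in KO. Its difference on the log2 scale was -0.62 between the WT libraries and -0.85 between the KO libraries, beside a fold change of 0.04 between genotypes. Uqcrq differed by -0.81 and -0.67 between replicates, and Ndufa5, an accessory subunit of complex I, by -0.70 and -0.56. The same order of libraries in both genotypes follows from the rule by which these genes were picked. Over the 82 genes with a mean of at least 2 CPM, the replicate difference in WT and that in KO had a Pearson correlation of 0.777. The difference between genotypes in replicate 1 and that in replicate 2 had one of 0.126. Over all 86 tested genes, which add 4 genes of low count, these values were 0.328 and -0.098, and over all 14274 tested genes they were 0.641 and 0.251. Both are descriptions across genes, which are not independent replicates, and the points share the 4 libraries and their depths.

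Macrophage, stromal and plasma cell markers also differed by replicate number. The 6 macrophage markers summed to 127 CPM in WT replicate 1 and 58.7 in WT replicate 2, and to 91.3 and 40.6 CPM in KO. Within each replicate number the sum was also lower in KO, and all 6 had a lower fitted level there, with 0 called. The 7 smooth muscle and stromal markers stood higher in replicate 2 of both genotypes, by the sums given above. The 2 plasma cell markers found summed to 131 and 256 CPM in WT against 137 and 349.5 CPM in KO, again higher in replicate 2. Depth was also higher in replicate 2. The part of these in the differences between replicates or genotypes was not tested.

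**Figure D4:**
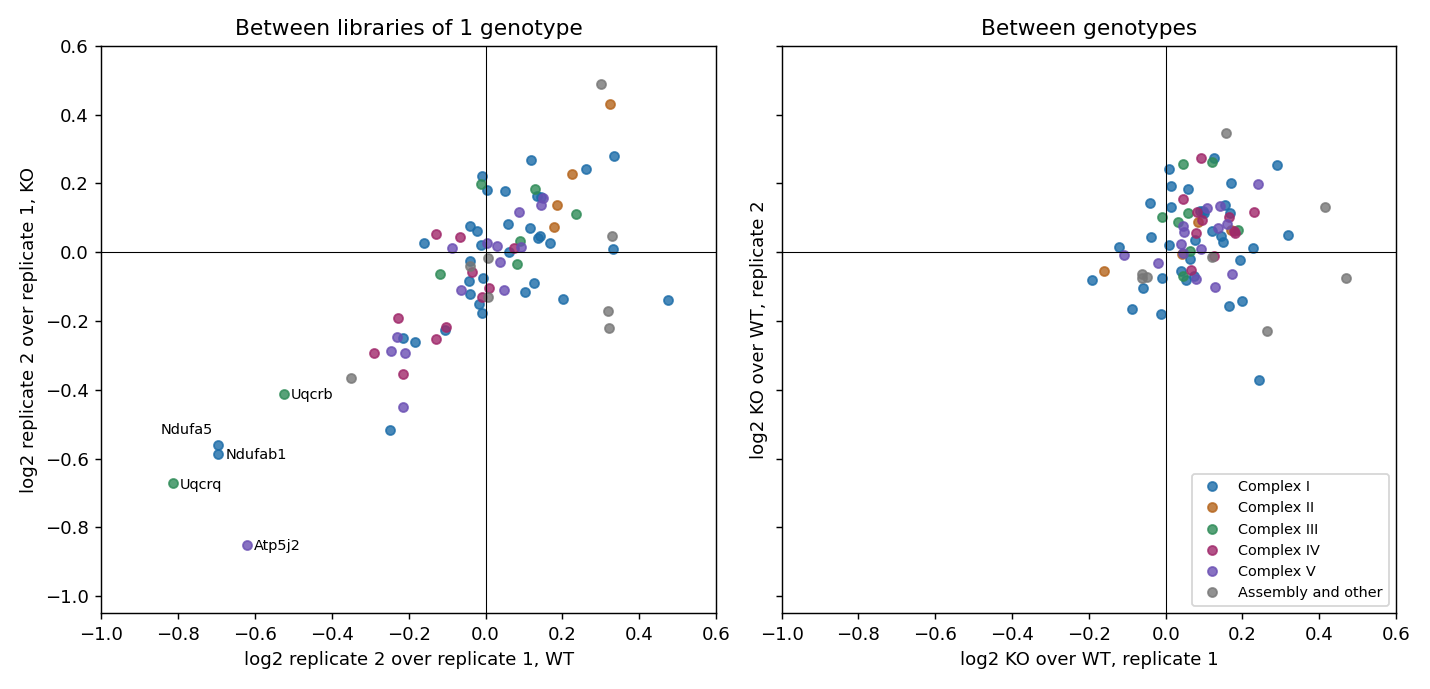
Each dot is 1 of 81 of the 82 genes with a mean of at least 2 CPM, with the log2 difference of replicate 2 over replicate 1 in WT and KO on the left and of KO over WT in replicates 1 and 2 on the right, on the same axes. On the left the dots stretch along a rising line down to Uqcrq at -0.81 and -0.67, and on the right they cluster near 0.

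Genes of other mitochondrial functions were read from the same fit. In 9 lists with 226 genes, of which 221 were tested, edgeR called 0 and DESeq2 called 0. Over all genes, edgeR called 0% in either direction, and DESeq2 called 0.167% of its genes higher and 0.1% lower. Before adjustment 0 of the listed genes had an edgeR p under 0.05, beside 1.64% of all tested genes higher and 1.21% lower. The mitochondrial ribosomal proteins had 50 of 77 genes on the higher side and a median log2 fold change of 0.05, and protein import genes had 13 of 20 and 0.04. Tricarboxylic acid cycle and pyruvate genes had 15 of 22 and 0.04, and carriers, uncoupling and redox genes 10 of 14 and 0.04. Fatty acid oxidation genes had 8 of 16 and 0.01, coenzyme Q genes 8 of 13 and 0.01, and other electron carriers 7 of 11 and 0.02. Assembly factors outside the name rule had 13 of 27 and -0.03, and regulators of mitochondrial biogenesis had 6 of 21 and -0.03.

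Mrpl4, a protein of the large mitochondrial ribosomal subunit, stood at 28.9 and 28.2 CPM in WT against 33.6 and 32.5 CPM in KO (log2 fold change 0.21, interval -0.03 to 0.46). Peo1, the mitochondrial DNA helicase also called Twinkle, stood at 17.3 and 18.6 CPM in WT against 14.3 and 15.4 CPM in KO (-0.28, interval -0.56 to 0.01). Timm9, a chaperone of the intermembrane space, stood at 5.66 and 5.45 CPM in WT against 4.43 and 3.71 CPM in KO (-0.45, interval -0.96 to 0.06). The groups did not overlap in these 3 genes, and none passed the adjusted test. Cyc1, the cytochrome c1 of complex III that the name rule leaves out, stood at 32.6 and 31.9 CPM in WT against 31.7 and 29.2 CPM in KO (-0.08, interval -0.34 to 0.18). Pprc1, a coactivator of NRF-1, had -0.16 (interval -0.43 to 0.11), and Sucla2, a subunit of succinyl-CoA ligase, had 0.16 (interval -0.10 to 0.42).

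**Figure D5:**
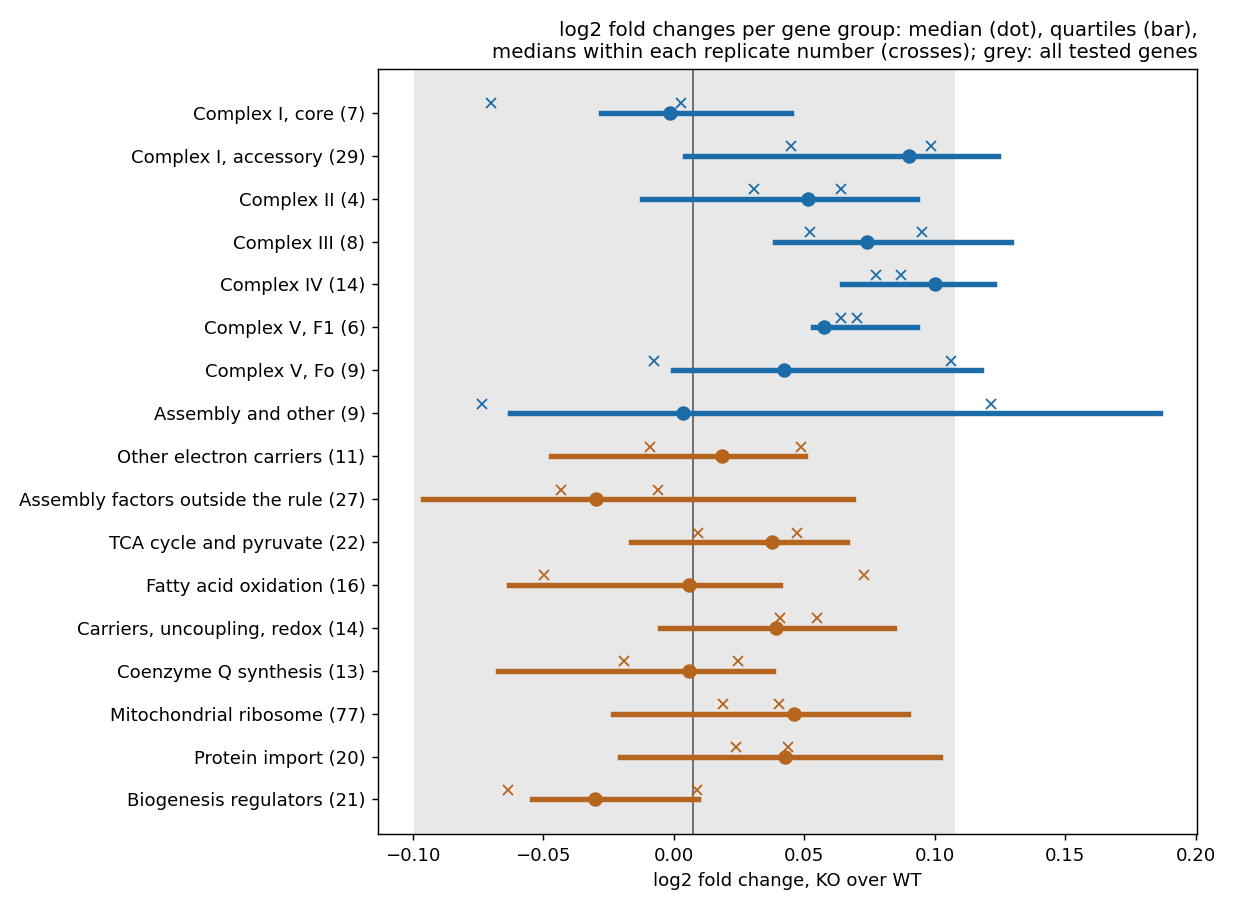
For each group of genes (number tested in brackets) the dot is the median log2 fold change of KO over WT, the bar its quartiles and the crosses the medians within replicates 1 and 2, with all 14274 tested genes as a grey band of quartiles and a grey median line. All group medians lie between the quartiles of all tested genes, with complex IV the highest at 0.10.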

How the data were processed

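Transcripts were measured by RNA-seq in 4 samples. Per the labels' protocols, ribosomal RNA was removed, and pooled libraries were sequenced over 2 lanes as 50 bp single-end reads. Also in the series, 4 ATAC-seq libraries are not analysed here. Values were the deposited whole-number counts per gene. The adjusted p-value in the authors' deposited table, whose comparison is not named, was taken to set KO against WT. TopHat2, DESeq and mm9 are named, per the submitters' processing notes. Which counter and annotation were used, and whether strand was, is not given in the sources used here. Of the 89 rows, 17 overlap another gene row, so reads there cannot be assigned with certainty.

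The main test was edgeR 4.0.16 (R 4.3.3), quasi-likelihood, genotype as the only term, filterByExpr, TMM and Benjamini-Hochberg over 14274 genes. CPM used totals over tested genes times the TMM factor. Log2 ratios within a replicate number used a prior count of 2. DESeq2 1.42.0, limma 3.58.1, other scalings and filters, a replicate block and leaving out each library were alternatives. Others were chosen after seeing the data, namely the newer quasi-likelihood method, DESeq2 with a block, and leaving Lars2 out. The fits were also run on simulated counts, whose spread was estimated with the replicate number as a block. The common dispersion, a measure of that spread, was 0.0041 with the block and 0.033 in the main fit. The simulation therefore does not show what the main test could detect in these data. Genes were named by a rule on p-values, level, isoform families and lists (Ahr and Ahrr, the 2 lowest p per complex and direction, the highest CPM per complex, complex II, and 2 per pathway list), of which not all are printed. For 1 member, single values are not reported here, and it stays in the counts and medians. Ndufc1, Ndufs7, Ndufv1, Ndufv2, Ndufab1, Ndufa1, Ndufb11, Ndufa5, Atp5b, Atp5c1, Atp5j2, Atp5l, Cox7c, Ndufaf3, Uqcrb and Uqcrq were named after their values were seen. The members and lists were chosen with earlier results of these data known. Without molecular identifiers, intervals and floors from counts describe counting error alone.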

Additional observations from a re-analysis of the deposited data

How the results depend on the processing

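No oxidative phosphorylation gene was called under any of the 14 alternatives run. The count of all genes called moved from 0 to 52 with no filter, 48 with DESeq2, 458 with the replicate number as a block, 139 with DESeq2 and that block, and to between 0 and 2 when a library was left out. With the replicate block the lowest adjusted p of a member was 0.272 (Ndufb7), and 6 members (6.98%) had an unadjusted p under 0.05, beside 13.2% of all tested genes. Same-numbered libraries deviated together (correlation 0.641 over 14274 genes), but the labels give the number no meaning, so the block stands only here. It has 1 residual degree of freedom. Complex IV had a median of 0.0895 with no filter, 0.0922 with DESeq2 and 0.0909 with DESeq2 and the block. Leaving out a library moved the median of all members between 0.0243 and 0.0731, complex I between 0.0198 and 0.0916, complex II between -0.0484 and 0.16, complex III between 0.0419 and 0.0770, complex IV between -0.00026 and 0.17, complex V between -0.0260 and 0.10, and the 9 other rows between -0.08 and 0.09. The number of members on the higher side then lay between 48 and 62.

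Of 54 named genes, 41 kept the sign of their fold change in each alternative that fitted them (Cox4i2, Cox6b2, Cox7a1 and Ucp3 were not fitted in all 14). The other 13 changed sign only when a library was left out, apart from Cox6b2, which was also at -0.10 with DESeq2 and the block. Over the libraries left out, Cox6b2 ran from -1.04 to 0.69, Cox4nb from -0.0064 to 0.47, Cox6a1 from -0.0187 to 0.24, Cox6b1 from -0.13 to 0.23, Cox7a2l from -0.0223 to 0.12, Cox7b from -0.0676 to 0.0713 and Cox8a from -0.00026 to 0.23. Ndufa11 ran from -0.27 to 0.0035, Sdha from -0.33 to 0.0876, Sdhc from -0.0345 to 0.20, Sdhd from -0.0733 to 0.11, Uqcrc1 from -0.0554 to 0.0278 and Uqcrc2 from -0.0346 to 0.14. Without 1 library, the fold change of 42 of the 54 reversed or moved by over 1.5 times, as in Atp5a1 (0.0015 to 0.11). The 12 others were Ahrr, Cox7a1, Cox4i1, Atp5f1, Atp5sl, Ndufaf4, Gpd2, Peo1, Sod2, Pdss2, Mrpl4 and Timm9. The cause of these moves was not tested. With a library left out, the lone sample of its genotype is assumed to vary like the other genotype.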
